A study of Danio rerio with 12 samples.

Results

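The vacuolar ATPase (V-ATPase) is described here at the level of its messenger RNAs, in 2 sedimentation fractions of zebrafish larvae. A gene was taken as a member where its symbol began with atp6v0, atp6v1, or atp6ap, which gave 27 of the 31778 genes in the count tables. They were grouped by symbol into 9 genes of the V0 sector, 5 genes of the accessory subunits, and 13 genes of the V1 sector. Larvae, labelled as strain AB, were homogenized whole at 5 days post fertilization (dpf), many animals together. The membrane-bound (MB) fraction was the pellet at 14000 xg, and the high-speed (HS) fraction was the pellet that its supernatant gave at 100000 xg. All larvae carried the transgene Tg(Xla.Eef1a1:mlsEGFP)cms1, an EGFP sent to mitochondria and driven by a frog elongation factor promoter. The WT larvae came from parents that were mia40a+/+, and the mutants were mia40a-/- offspring of mia40a+/- parents, picked under a fluorescence microscope at 4 dpf. The gene mia40a is also named chchd4a, and the mutant is called chchd4a-/- below. The mutants and the WT larvae were therefore not littermates, and the parentage and the sorting cannot be told apart from the genotype. There were 3 libraries of each fraction and genotype, 12 in all. MB was compared with HS in each genotype, and the genotypes were then compared. The paper reports endoplasmic reticulum in both pellets, and in HS both free ribosomes and ribosomes bound to it. The MB/HS ratio thus orders transcripts between the 2 pellets and does not measure the share bound to membranes.

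The V-ATPase is a rotary proton pump that acidifies lysosomes, endosomes, synaptic vesicles, and, in some cells, the space outside the plasma membrane. Its soluble V1 sector lies on the cytosolic face and hydrolyses ATP, and its V0 sector lies in the membrane and carries the protons. Most V0 subunits and the accessory subunits cross the membrane and are made on ribosomes at the endoplasmic reticulum, whereas V1 subunits are made in the cytosol and join V0 later. The d subunit, the product of atp6v0d1, is counted with V0 but does not itself cross the membrane. In zebrafish larvae the pump is abundant in ionocytes of the skin, and synaptic vesicles of neurons and osteoclasts also use it in vertebrates.

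Several zebrafish V-ATPase genes are duplicated, and the naming table gave some pairs a single symbol. The 8 genes of such pairs are written with the last 5 digits of their Ensembl identifier, as in ATP6V0A1-15174 (ENSDARG00000015174) and ATP6V0A1-20847 (ENSDARG00000020847). ATP6V0A2 (ENSDARG00000035538) and ATP6V0C (ENSDARG00000057853) keep the symbol of the table, next to their relatives atp6v0a2b (ENSDARG00000035565) and atp6v0cb (ENSDARG00000036577). Reads that fit both copies of a pair were shared out by estimation, so the split within a pair is uncertain. All 27 genes passed the filter on low counts in every comparison. Levels are given as CPM, read counts scaled to library size, on a shared scale for all 12 libraries. They were not divided by transcript length, so they are compared between libraries only, for a gene or for the same sum of genes.

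The libraries held from 45621399 to 96059775 gene counts, of which 29337 to 263478 fell on the 27 genes. The 9 transcripts of the mitochondrial genome that were listed as a check of the MB pellet took 11.4 to 17.3% of gene counts in WT MB and 1.43 to 1.70% in WT HS, and 4.89 to 9.26% in chchd4a-/- MB and 1.16 to 1.80% in chchd4a-/- HS. The RNA of chchd4a itself stood at 3.76 to 12.4 CPM in WT HS and 11.3 to 27 CPM in chchd4a-/- HS, and at 4.58 to 5.48 CPM in WT MB and 6.71 to 8.21 CPM in chchd4a-/- MB. It was thus not lower in the mutant, and since the labels do not say what the allele does to the RNA, this level does not check the genotype. The labels do not say that the libraries of a group came from separate batches of larvae, so the p-values measure the spread between these libraries, which may be technical.

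A pair of HS libraries stood apart from the others of their group in V1 genes, and they are described first because many values below rest on them. In WT HS replicate 1, all 13 V1 genes were at the lowest level of the 3 WT HS libraries, as were 46.9% of all genes tested, and 9 of the 14 V0 and accessory genes. The median V1 gene stood at -1.14 on the log2 scale against the mean of the other 2 WT HS libraries, beside -0.38 for V0, 0.29 for the accessory genes, and -0.01 for all genes. In chchd4a-/- HS replicate 2, again all 13 V1 genes were the lowest of their group, beside 36.6% of all genes tested and 3 of the 14 V0 and accessory genes. There the median V1 gene stood at -1.04, with 0.21 for V0, 0.12 for the accessory genes, and 0.05 for all genes. The V0 gene atp6v0d1 went with the V1 genes in both libraries, at -2.16 in the WT and -1.24 in the mutant library. WT HS replicate 1 also had the largest share of spike-in reads, 30.0% of its counts over genes and spike-ins together. The other WT HS libraries had 14.2% and 9.82%, whereas chchd4a-/- HS replicate 2 had 3.15% against 4.99% and 8.21%. WT MB replicate 1 was lower than both other WT MB libraries in all 13 V1 genes and in 11 of 14 V0 and accessory genes, beside 39.7% of all genes tested. Its medians were -0.44 for V1, -0.53 for V0, -0.17 for the accessory genes, and 0.04 for all genes. What set these libraries apart was not tested.

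**Figure D1:**
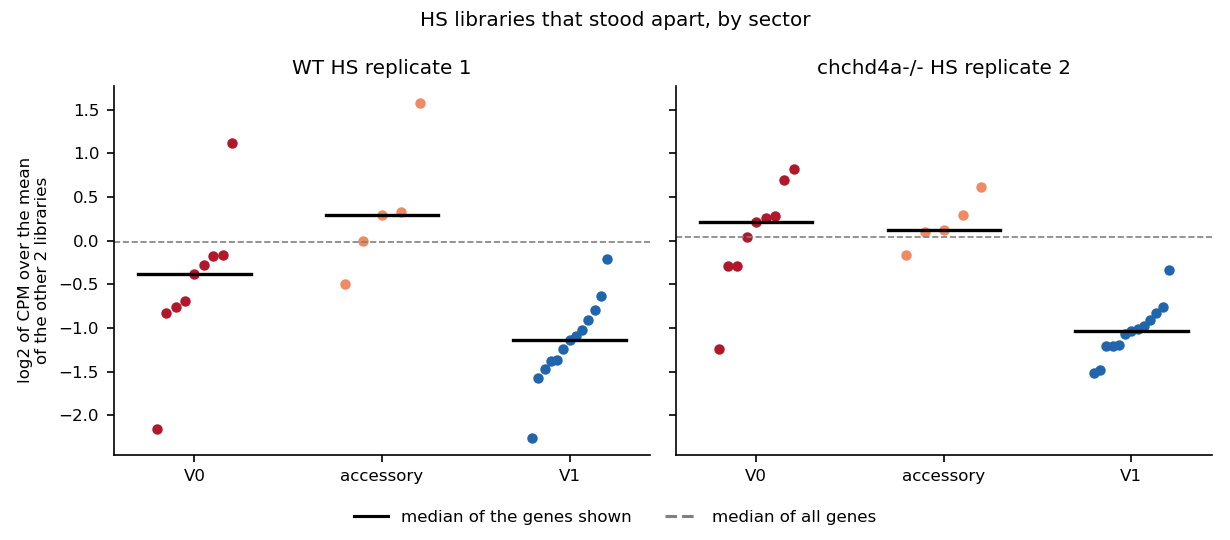
Each point is a V-ATPase gene in WT HS replicate 1 (left) or chchd4a-/- HS replicate 2 (right), plotted as the log2 of its CPM over the mean of the other 2 HS libraries of that genotype, with black bars for sector medians and a dashed line for the median of all genes. All 13 V1 genes lie below 0 in both libraries, with medians of -1.14 and -1.04, while the V0 medians are -0.38 and 0.21.

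In WT larvae the transcripts of 11 of the 14 V0 and accessory genes were enriched in the MB fraction, and 12 of the 13 V1 genes did not pass the test in either direction. Of the 9 V0 genes 7 were MB-enriched at an adjusted p of at most 0.05, of the 5 accessory genes 4, and of the 13 V1 genes 1, atp6v1f. Of all genes tested, 12.4% were MB-enriched and 13.3% HS-enriched. These counts are without the replicate number in the model. With it as a block, 14 V-ATPase genes were MB-enriched, both ATP6V1A genes of V1 among them, against 21.4% of all genes. The median log2 MB/HS was 1.06 for V0, 0.96 for the accessory genes, and 0.15 for V1, beside 0.08 for all 23733 genes tested. With all WT libraries, no V-ATPase gene was HS-enriched by edgeR. At p under 0.05 before adjustment there were also 0, against 4678 of all 23733 genes. DESeq2 called 0, against 20% of all genes. It had 2 V-ATPase genes under 0.05 before adjustment, a count not taken over all genes. The scale matters for these signs, since TMM sets the bulk of genes near 0, whereas scaling to library totals moved the median of all genes to 0.58 and scaling to spike-in totals moved it to 2.62. Relative to the median of all genes, the V0 and accessory genes stood at 0.98, 0.99, and 1.03 under TMM, library totals, and spike-in totals, and the V1 genes at 0.08, 0.03, and -0.11. Every MB library was above every HS library for 11 of the 14 V0 and accessory genes and for 3 of the 13 V1 genes, against 26.4% of all genes.

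**Figure D2:**
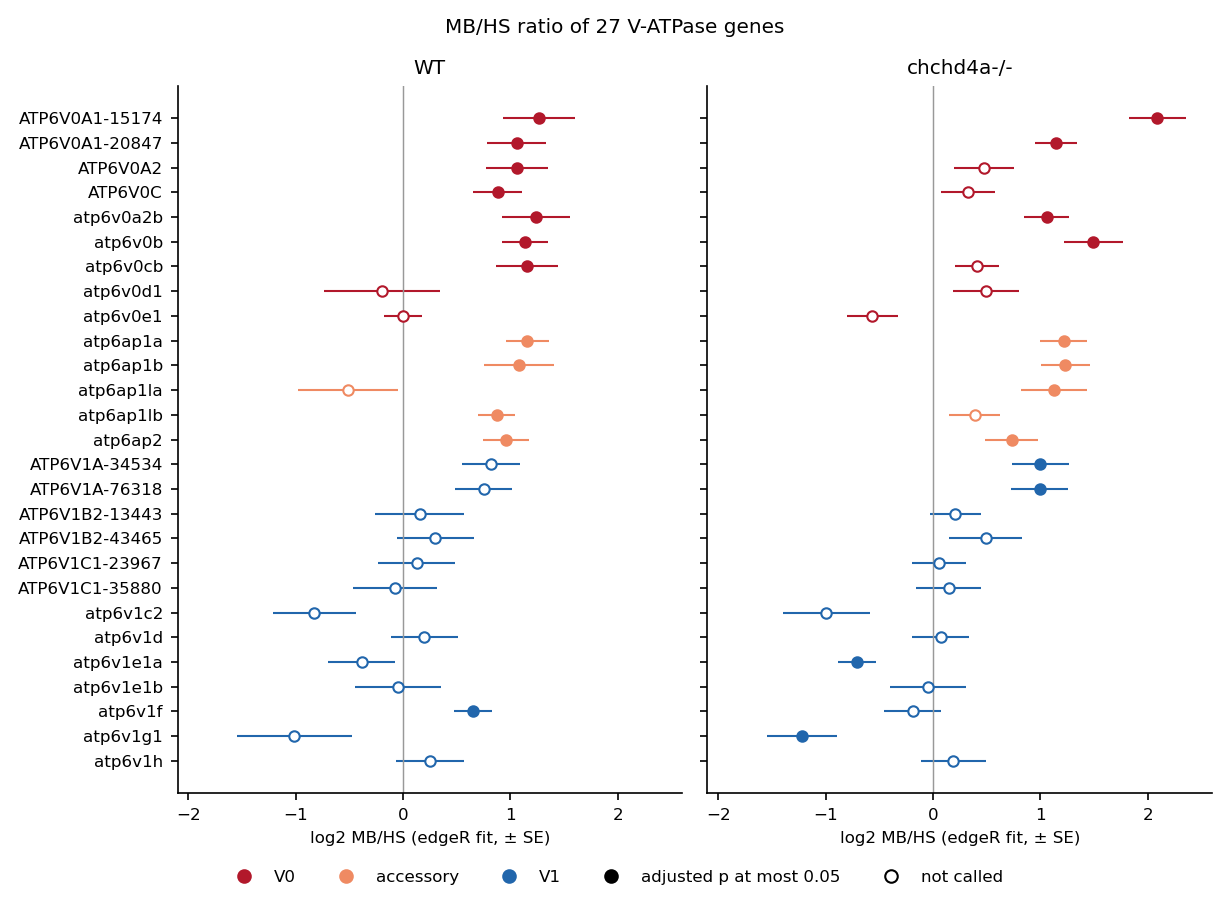
Fitted log2 MB/HS with its SE for each of the 27 genes in WT (left) and chchd4a-/- (right), from 3 libraries per fraction. Filled points passed an adjusted p of 0.05. In WT, 11 of 14 V0 and accessory genes and 1 of 13 V1 genes are filled to the right of 0, and in the mutant 8 of 14 and 2 of 13 are, with atp6v1e1a and atp6v1g1 filled to the left, although scaling to spike-in totals turned both of these to the right.

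The a subunits of V0 hold the channels through which protons enter and leave the pump. ATP6V0A1-15174 stood at 12.1, 5.71, and 5.47 CPM in WT HS replicates 1 to 3 and at 19.3, 18.7, and 18.2 CPM in WT MB, a log2 MB/HS of 1.27 ± 0.34 (SE), adjusted p = 0.0326. Its paralog ATP6V0A1-20847 went from 18.9, 23.1, and 26.1 CPM in HS to 31.0, 53.2, and 58.3 CPM in MB (1.06 ± 0.28 (SE), adjusted p = 0.0323). The MB libraries were above the HS libraries in both, with the smallest gap at WT HS replicate 1 of the first and WT MB replicate 1 of the second. ATP6V0A2 had lower counts, at 1.61, 2.71, and 2.75 CPM in HS and 3.84, 5.60, and 5.48 CPM in MB (1.06 ± 0.29 (SE), adjusted p = 0.0365). Its relative atp6v0a2b had 3.38, 5.93, and 6.12 CPM in HS and 8.76, 12.6, and 15.4 CPM in MB (1.24 ± 0.32 (SE), adjusted p = 0.0298). The 4 a subunit genes with an atp6v0 symbol were thus MB-enriched by a log2 of 1.06 to 1.27, with no overlap between the fractions. The a3 genes, with the symbol TCIRG1, are not members, and their own values are not given here.

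The ring of c subunits turns in the membrane and carries one proton per subunit, and atp6v0b encodes its larger c'' form. For ATP6V0C the levels were 146, 168, and 186 CPM in HS and 243, 335, and 345 CPM in MB (0.88 ± 0.23 (SE), adjusted p = 0.0309). The c subunit gene atp6v0cb had 85.8, 136, and 141 CPM in HS and 198, 308, and 306 CPM in MB (1.16 ± 0.29 (SE), adjusted p = 0.0277). For atp6v0b the HS libraries lay close together at 12.01, 14.3, and 12.7 CPM, and the MB libraries had 22.2, 30.7, and 33.0 CPM (1.13 ± 0.22 (SE), adjusted p = 0.0134). In all 3 ring genes the lowest MB library, replicate 1, was still above the highest HS library. The remaining pair of V0 genes did not pass the test. The gene atp6v0d1, whose product links the ring to the central stalk of V1, had 37.2, 152, and 179.5 CPM in HS and 71.3, 131, and 121 CPM in MB (-0.20 ± 0.54 (SE), adjusted p = 0.807), and its fractions overlapped because HS replicate 1 was below all MB libraries and HS replicates 2 and 3 above them. The gene of the small membrane subunit e, atp6v0e1, stayed between 55.6 and 65.9 CPM over all 6 libraries, at 55.6, 62.8, and 63.1 CPM in HS and 65.9, 56.2, and 59.9 CPM in MB (-0.0013 ± 0.18 (SE), adjusted p = 0.996).

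The accessory subunits bind V0 from the luminal side, and ATP6AP1 (Ac45) and ATP6AP2, also known as the (pro)renin receptor, help the pump to assemble in mammalian cells. The ATP6AP1 gene atp6ap1a went from 52.6, 45.5, and 38.4 CPM in HS to 94.7, 104, and 107 CPM in MB (1.16 ± 0.20 (SE), adjusted p = 0.0105). Its duplicate atp6ap1b had 11.4, 16.04, and 16.2 CPM in HS and 17.8, 36.3, and 38.6 CPM in MB (1.08 ± 0.32 (SE), adjusted p = 0.047), where the lowest MB library was only just above the highest HS library. For atp6ap2 the values were 59.6, 48.5, and 49.1 CPM in HS and 83.2, 108, and 116 CPM in MB (0.96 ± 0.21 (SE), adjusted p = 0.0197). These 3 genes were about doubled in MB, and none of them overlapped between the fractions. The ATP6AP1-like genes parted ways. The HS libraries of atp6ap1lb were nearly equal at 10.0, 10.1, and 9.97 CPM and its MB libraries had 17.1, 19.4, and 18.9 CPM (0.87 ± 0.17 (SE), adjusted p = 0.0153). The gene atp6ap1la had 7.21, 2.56, and 2.26 CPM in HS and 3.48, 2.41, and 2.52 CPM in MB (-0.51 ± 0.47 (SE), adjusted p = 0.44), with HS replicate 1 above all other libraries and the rest overlapping.

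In the V1 head, the A subunits hydrolyse ATP and alternate with the B subunits, which bind nucleotide without splitting it. ATP6V1A-34534 had 46.5, 74.8, and 86.0 CPM in HS and 102, 138, and 128 CPM in MB (0.82 ± 0.27 (SE), adjusted p = 0.0637). ATP6V1A-76318 had 15.4, 23.3, and 24.3 CPM in HS and 26.3, 41.6, and 38.7 CPM in MB (0.75 ± 0.27 (SE), adjusted p = 0.0735). In both A subunit genes every MB library was above every HS library, and neither passed the threshold without the replicate number in the model, but with the replicate number as a block both did, at a log2 of 0.86 and 0.75 (adjusted p = 0.0196 and 0.0196). The B subunit genes were not separated by fraction. ATP6V1B2-13443 had 49.9, 134, and 162 CPM in HS and 102, 147, and 137 CPM in MB (0.15 ± 0.42 (SE), adjusted p = 0.801). ATP6V1B2-43465 had 26.8, 61.5, and 65.4 CPM in HS and 48.3, 76.0, and 65.5 CPM in MB (0.30 ± 0.36 (SE), adjusted p = 0.559).

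The D and F subunits form the central stalk that turns with the ring. For atp6v1f the levels were 16.6, 18.2, and 20.2 CPM in HS and 27.1, 31.6, and 28.1 CPM in MB (0.65 ± 0.18 (SE), adjusted p = 0.0364), and it was the V1 gene called MB-enriched. Its partner in the stalk, atp6v1d, had 48.2, 93.0, and 112 CPM in HS and 91.0, 100.6, and 99.95 CPM in MB (0.20 ± 0.31 (SE), adjusted p = 0.658), with HS replicate 3 above all MB libraries. The C, E, and G subunits build the outer stalks that hold the head still, and the H subunit regulates the pump and its ATP use. ATP6V1C1-23967 had 22.4, 53.5, and 62.5 CPM in HS and 44.8, 56.0, and 51.1 CPM in MB (0.13 ± 0.36 (SE), adjusted p = 0.813). ATP6V1C1-35880 had 15.2, 35.8, and 43.1 CPM in HS and 21.4, 35.6, and 32.6 CPM in MB (-0.08 ± 0.39 (SE), adjusted p = 0.894). In both C subunit genes the MB libraries lay between HS replicate 1 and HS replicate 3. The third C subunit gene, atp6v1c2, had 9 to 43 counts per library and 328 over all 12 and no more than 0.608 CPM in any, and its log2 MB/HS was -0.83 ± 0.39 (SE), adjusted p = 0.147.

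Of the E and G subunit genes, atp6v1e1b had 53.0, 128, and 166 CPM in WT HS and 91.1, 127, and 119.8 CPM in WT MB (-0.04 ± 0.40 (SE), adjusted p = 0.942). For atp6v1e1a the MB libraries were nearly equal at 13.0, 13.1, and 13.2 CPM, and the HS libraries had 9.42, 20.2, and 21.3 CPM (-0.39 ± 0.31 (SE), adjusted p = 0.382). The largest spread among HS libraries was that of atp6v1g1, at 68.8, 312, and 346 CPM, against 106, 136, and 120.0 CPM in MB (-1.01 ± 0.54 (SE), adjusted p = 0.191). In atp6v1e1a and atp6v1g1, HS replicates 2 and 3 were above all MB libraries and HS replicate 1 was below all of them. The H subunit gene atp6v1h had 41.7, 76.3, and 93.6 CPM in HS and 68.2, 92.6, and 92.0 CPM in MB (0.25 ± 0.32 (SE), adjusted p = 0.58), with overlapping fractions.

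The difference between the sectors in WT was 0.91 on the log2 scale, taken as the median of the 14 V0 and accessory genes minus that of the 13 V1 genes. It rested on replicates 2 and 3. With each MB library set against the HS library of the same number, the difference was -0.02 in replicate 1, 0.98 in replicate 2, and 1.38 in replicate 3. The V0 and accessory median was above 0 in each, at 0.75, 1.1, and 1.14, whereas the V1 median was 0.77, 0.11, and -0.24. In replicate 1, 12 of 13 V1 genes were higher in MB than in HS, against 8 in replicate 2 and 4 in replicate 3. Without WT HS replicate 1 the fit called 14 V-ATPase genes MB-enriched and 3 HS-enriched, against 29.8% and 28% of all genes, and the sectors differed by 1.14. The MB calls then were all 12 above and both A subunit genes, and the HS calls were atp6v1g1 (-1.45, adjusted p = 0.000639), atp6v1e1a (-0.67, adjusted p = 0.00292), and atp6v1c2 (-1.04, adjusted p = 0.0352). Without replicate 1 of both fractions there were 14 MB calls and 4 HS calls, the fourth being atp6v0d1, against 36.4% and 33.7% of all genes. The number of calls in WT depended on the libraries for all genes alike. Without WT HS replicate 2 there were 2 MB calls among V-ATPase genes (atp6ap1a and atp6v0b) and 2.44% over all genes, and without WT HS replicate 3 there was 1 (atp6v0b) and 3.75%. Without WT MB replicate 2 or WT MB replicate 3 there were 0 MB calls among all genes, and 12 V-ATPase genes in each had a higher MB level at p under 0.05 before adjustment. Without WT MB replicate 1 there were 10 MB calls among V-ATPase genes, against 8.72% of all genes, and 14 before adjustment. Counts of all genes before adjustment were not taken in these fits. With all libraries such a count was 14 V-ATPase genes and 5179 of all 23733 genes. The difference between the sectors ran from 0.55 to 1.14 over the 6 fits that left out 1 library.

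**Figure D3:**
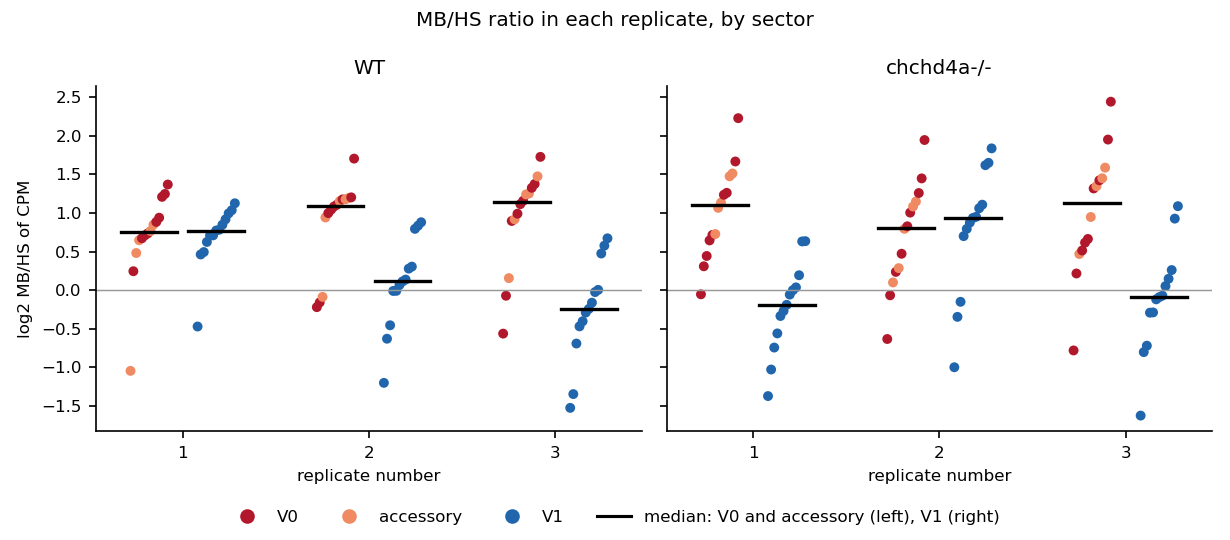
Log2 ratio of CPM in the MB library over the HS library of the same replicate number, for each of the 27 genes in WT (left) and chchd4a-/- (right), with black bars for the median of the V0 and accessory genes (left bar) and of the V1 genes (right bar). In WT the bars are level in replicate 1 (0.75 and 0.77) and apart in replicates 2 and 3, and in the mutant they are apart in replicates 1 and 3 and reversed in replicate 2 (0.81 and 0.94).

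In chchd4a-/- larvae 8 of the 14 V0 and accessory genes were enriched in the MB fraction, and of the 13 V1 genes 2 were enriched in MB and 2 in HS. Of the 9 V0 genes 4 were MB-enriched, of the 5 accessory genes 4, and of the 13 V1 genes 2, both A subunit genes, while the V1 genes atp6v1e1a and atp6v1g1 were HS-enriched. Of all genes tested, 17% were MB-enriched and 20% HS-enriched. The median log2 MB/HS was 0.49 for V0, 1.13 for the accessory genes, and 0.07 for V1, beside -0.01 for all 23854 genes tested. Every MB library was above every HS library for 10 of the 14 V0 and accessory genes and for 2 of the 13 V1 genes, against 29.5% of all genes. Of the 14 V0 and accessory genes, 7 were MB-enriched in both genotypes, 4 in WT alone, 1 in the mutant alone, and 2 in neither, and these counts are no test of a difference between the genotypes. When libraries were scaled to their totals instead of by TMM, 21 genes were MB-enriched and 0 HS-enriched in the mutant, in place of 10 and 2, against 52.5% and 5.71% of all genes, and the median of all genes moved to 0.81. With spike-in totals there were 25 and 0, against 75.9% and 0.147% of all genes, and the median of all genes was 1.92. Relative to all genes, the V0 and accessory median was 0.91, 0.91, and 0.84 under TMM, library totals, and spike-in totals, and the V1 median 0.09, 0.07, and 0.21.

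Among the a subunits, the mutant values of ATP6V0A1-15174 were 3.77, 5.71, and 3.27 CPM in HS and 17.7, 22.1, and 17.9 CPM in MB (2.09 ± 0.27 (SE), adjusted p = 0.00128), the largest MB/HS difference of any V-ATPase gene in either genotype. ATP6V0A1-20847 had 18.7, 23.1, and 21.0 CPM in HS and 44.1, 46.3, and 56.5 CPM in MB (1.15 ± 0.20 (SE), adjusted p = 0.0031). The a2 gene atp6v0a2b had 4.98, 6.08, and 5.19 CPM in HS and 11.96, 10.8, and 13.0 CPM in MB (1.06 ± 0.21 (SE), adjusted p = 0.00546). These 3 did not overlap between the fractions, in contrast to ATP6V0A2 with 1.98, 2.58, and 3.05 CPM in HS and 3.25, 3.04, and 4.83 CPM in MB (0.48 ± 0.28 (SE), adjusted p = 0.203), where MB replicate 2 was below HS replicate 3. Of the ring genes, atp6v0b passed the test, with 8.48, 14.8, and 8.26 CPM in HS and 26.98, 35.5, and 32.0 CPM in MB (1.5 ± 0.28 (SE), adjusted p = 0.00414). The c subunit gene ATP6V0C had 147, 206, and 192 CPM in HS and 230.2, 197, and 294 CPM in MB (0.33 ± 0.25 (SE), adjusted p = 0.324). For atp6v0cb the values were 129, 106, and 129.9 CPM in HS and 176, 147, and 186 CPM in MB (0.41 ± 0.21 (SE), adjusted p = 0.142). The fractions of atp6v0cb did not overlap and those of ATP6V0C did, and neither gene was called.

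The d subunit gene atp6v0d1 stood at 106, 49.0, and 126 CPM in chchd4a-/- HS and 131, 134, and 146 CPM in MB (0.49 ± 0.31 (SE), adjusted p = 0.222), and HS replicate 2 was again far below the rest, although every MB library was above every HS library. The e subunit gene atp6v0e1 was lower in every MB library than in every HS library, at 56.0, 57.0, and 83.6 CPM in HS and 53.9, 36.7, and 48.6 CPM in MB, but did not pass the test (-0.57 ± 0.24 (SE), adjusted p = 0.0863). Among the accessory genes, atp6ap1a had 24.2, 28.3, and 22.0 CPM in HS and 67.4, 49.0, and 66.1 CPM in MB (1.22 ± 0.22 (SE), adjusted p = 0.00367). Its duplicate atp6ap1b was close to it in size of the difference, with 10.4, 14.03, and 15.9 CPM in HS and 29.8, 29.8, and 40.5 CPM in MB (1.24 ± 0.23 (SE), adjusted p = 0.0043). The (pro)renin receptor gene atp6ap2 had 30.5, 39.7, and 42.4 CPM in HS and 66.9, 48.3, and 81.8 CPM in MB (0.74 ± 0.25 (SE), adjusted p = 0.0427). The ATP6AP1-like gene atp6ap1la, not called in WT, was MB-enriched in the mutant at 0.989, 1.36, and 0.790 CPM in HS and 2.08, 3.02, and 2.18 CPM in MB (1.13 ± 0.31 (SE), adjusted p = 0.0197). Its relative atp6ap1lb, called in WT, had 8.27, 8.11, and 9.94 CPM in HS and 13.7, 8.68, and 13.8 CPM in MB in the mutant (0.39 ± 0.24 (SE), adjusted p = 0.216), with MB replicate 2 inside the HS range.

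In the V1 head of the mutant, ATP6V1A-34534 had 100.9, 48.2, and 79.8 CPM in HS and 157, 152, and 169.7 CPM in MB (1.00 ± 0.26 (SE), adjusted p = 0.0175). ATP6V1A-76318 had 31.2, 14.03, and 26.5 CPM in HS and 48.3, 50.2, and 50.4 CPM in MB (0.99 ± 0.26 (SE), adjusted p = 0.0175). Both catalytic subunit genes were about doubled in MB with no overlap. The log2 MB/HS of the other 11 V1 genes ran from -1.22 to 0.49. In both A subunit genes the lowest HS library was replicate 2, and over the alternatives their values went down to 0.77 and 0.74. Both calls were lost without chchd4a-/- MB replicate 1 or MB replicate 2, and that of ATP6V1A-34534 also without MB replicate 3. ATP6V1B2-13443 had 141, 84.7, and 146 CPM in HS and 141, 147, and 161 CPM in MB (0.21 ± 0.24 (SE), adjusted p = 0.503). ATP6V1B2-43465 had 61.3, 23.9, and 72.1 CPM in HS and 70.1, 73.4, and 86.3 CPM in MB (0.49 ± 0.34 (SE), adjusted p = 0.271). Neither B subunit gene passed the test, and both had their lowest value in HS replicate 2. The stalk gene atp6v1d had 133, 64.4, and 127 CPM in HS and 110.2, 124, and 121 CPM in MB (0.07 ± 0.27 (SE), adjusted p = 0.849). For atp6v1f the HS libraries had 45.8, 21.6, and 44.8 CPM and the MB libraries 31.0, 35.1, and 36.6 CPM (-0.19 ± 0.26 (SE), adjusted p = 0.593), so that HS replicate 2 was below and the other HS libraries above all MB libraries.

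Among the outer stalk genes of the mutant, ATP6V1C1-23967 had 66.5, 33.9, and 66.8 CPM in HS and 58.2, 62.2, and 61.5 CPM in MB (0.06 ± 0.25 (SE), adjusted p = 0.865). ATP6V1C1-35880 had 35.0, 17.7, and 46.2 CPM in HS and 33.6, 37.0, and 43.4 CPM in MB (0.15 ± 0.30 (SE), adjusted p = 0.718). Neither C1 gene was separated by fraction, and atp6v1c2 gave a log2 MB/HS of -0.99 ± 0.40 (SE), adjusted p = 0.0798, with an adjusted p of 0.0218 when the replicate number was a block. The E subunit gene atp6v1e1a had 23.4, 19.2, and 25.1 CPM in HS and 13.9, 15.1, and 14.4 CPM in MB (-0.71 ± 0.18 (SE), adjusted p = 0.0141). The G subunit gene atp6v1g1 had 315, 164, and 438 CPM in HS and 121, 147, and 142 CPM in MB (-1.22 ± 0.32 (SE), adjusted p = 0.018). In both, every HS library was above every MB library, but scaling to library totals turned atp6v1e1a to 0.11 and scaling to spike-in totals turned them to 1.28 and 0.93. The other E subunit gene, atp6v1e1b, had 148, 58.1, and 183 CPM in HS and 117, 125, and 149.7 CPM in MB (-0.04 ± 0.35 (SE), adjusted p = 0.931). The H subunit gene atp6v1h had 77.6, 36.7, and 91.9 CPM in HS and 79.5, 70.2, and 95.2 CPM in MB (0.19 ± 0.31 (SE), adjusted p = 0.642).

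The sectors differed by 0.83 on the log2 scale in the mutant, and by 1.29 in replicate 1, -0.13 in replicate 2, and 1.23 in replicate 3. In replicate 2 the V1 median of 0.94 was above the V0 and accessory median of 0.81, and 10 of 13 V1 genes were higher in MB than in HS, against 4 and 5 in the other replicates. Without chchd4a-/- HS replicate 2 the difference was 1.17, with 10 MB calls and 4 HS calls, against 25% and 25.6% of all genes, the latter being atp6v1g1, atp6v1e1a, atp6v1c2, and atp6v1f. Leaving out any of the other libraries kept 7 to 10 MB calls, among them both ATP6V0A1 genes, atp6v0a2b, atp6v0b, atp6ap1a, and atp6ap1b each time. The 2 HS calls were lost without chchd4a-/- HS replicate 1 or without any one of the 3 chchd4a-/- MB libraries, and also in a fit of all 12 libraries together.

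The MB/HS ratio differed between the genotypes in none of the V-ATPase genes without the replicate number in the model, and in atp6ap1la with it. In the fit of all 12 libraries 0 of the 27 genes were called, and 0% of all 24897 genes tested were, with 2 V-ATPase genes at p under 0.05 before adjustment, beside 2014 higher and 1450 lower among all genes. DESeq2 called 0 of the 27 genes, and 2.47% of all genes higher and 0.88% lower. These 2 were atp6ap1la, with a difference in log2 MB/HS (mutant minus WT) of 1.72 ± 0.57 (adjusted p = 0.226), and atp6v1f, with -0.78 ± 0.36 (adjusted p = 0.351). With the replicate number as a block, atp6ap1la passed the threshold, at 1.56 (adjusted p = 0.0422), when 2.79% of all genes were called higher and 0.43% lower. This gene had only 49 to 409 counts per library. Its WT HS level was 7.21 CPM in replicate 1, against 2.56 and 2.26 CPM in replicates 2 and 3. Spike-in scaling kept the direction of atp6ap1la and atp6v1f (0.61 and -1.30), with 0 calls. The median difference was 0.01 for the 14 V0 and accessory genes and -0.01 for the 13 V1 genes, beside -0.08 for all genes. The c subunit genes, called in WT alone, differed by -0.48 ± 0.34 for ATP6V0C and -0.68 ± 0.36 for atp6v0cb (adjusted p = 0.568 and 0.42), and neither passed the test.

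Between the genotypes, 1 of the 27 V-ATPase genes was called higher and 2 lower in chchd4a-/- HS, in the fit of all 12 libraries. Of all genes tested, 6.66% were higher and 11.4% lower, so V-ATPase genes were not called more often than all genes in either direction. With the 6 HS libraries fitted alone, 0 were called. The accessory genes atp6ap1a (-0.87 ± 0.20 (SE), adjusted p = 0.012) and atp6ap1la (-1.92 ± 0.42 (SE), adjusted p = 0.00905) were lower in mutant HS, although spike-in scaling turned them to 1.08 and 0.44, and the V1 gene atp6v1f (1.03 ± 0.26 (SE), adjusted p = 0.0161) was higher. For atp6ap1a the HS levels were 52.6, 45.5, and 38.4 CPM in WT and 24.2, 28.3, and 22.0 CPM in the mutant, and for atp6v1f they were 16.6, 18.2, and 20.2 and 45.8, 21.6, and 44.8 CPM, with no overlap in either gene. Among all 24897 genes tested, every mutant HS library was above every WT HS library in 4005 and below in 4188. The drop of atp6ap1la, from 7.21, 2.56, and 2.26 to 0.989, 1.36, and 0.790 CPM, was largest against WT HS replicate 1, and without that library it was -1.16 (adjusted p = 0.0213). Without chchd4a-/- HS replicate 1, 1 gene remained (atp6ap1la), and when the 6 HS libraries were fitted alone 0 remained, among all genes as among the V-ATPase genes, with adjusted p of 0.0984, 0.0688, and 0.110 for atp6ap1a, atp6ap1la, and atp6v1f. The a subunit gene ATP6V0A1-15174 (-0.86 ± 0.31 (SE), adjusted p = 0.0676) was called lower by DESeq2 (-0.88, adjusted p = 0.0411), without WT HS replicate 3 or chchd4a-/- HS replicate 2 alone, and without WT HS replicate 1 and chchd4a-/- HS replicate 2 together (-0.66, adjusted p = 0.0229), although spike-in scaling turned it to 1.36. Scaling to spike-in totals gave 6 genes higher and 0 lower in mutant HS, in place of 1 and 2, against 53.5% and 0.193% of all genes, and moved the median of all genes from 0.07 to 1.82. In whole larvae fewer cells of a type and less RNA per cell cannot be told apart.

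In the MB fraction no V-ATPase gene was called between the genotypes by edgeR, and 0.0201% of all genes were called higher and 0.0241% lower in the mutant. Before adjustment 4 genes had p under 0.05, each with a lower value in the mutant. These were atp6ap1a (-0.74 ± 0.20), atp6ap1lb (-0.62 ± 0.21), atp6ap2 (-0.64 ± 0.24), and atp6v0cb (-0.68 ± 0.25). Spike-in scaling turned these 4 to 0.27, 0.36, 0.31, and 0.27. It also moved the median of all genes from -0.02 to 1.08, so that the 4 genes stayed below it. Among all 24897 genes, 1582 were lower and 984 higher in mutant MB at p under 0.05 before adjustment. In each of these 4 genes every mutant MB library was below every WT MB library on the TMM scale, as in 3760 of all 24897 genes. The 4 genes were picked by p from the same libraries, so this separation adds no support. Their adjusted p was 0.193 to 0.357, and DESeq2 called 1 of them, atp6ap1a (adjusted p = 0.0347), when it called 1.31% of all genes lower and 0.655% higher. The gene atp6ap1a was also called when WT HS replicate 1 and chchd4a-/- HS replicate 2 were left out (-0.72, adjusted p = 0.0464), when 1.3% of all genes were called lower. The median log2 difference in MB, mutant minus WT, was -0.28 for the V0 and accessory genes and 0.24 for V1, beside -0.02 for all genes.

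**Figure D4:**
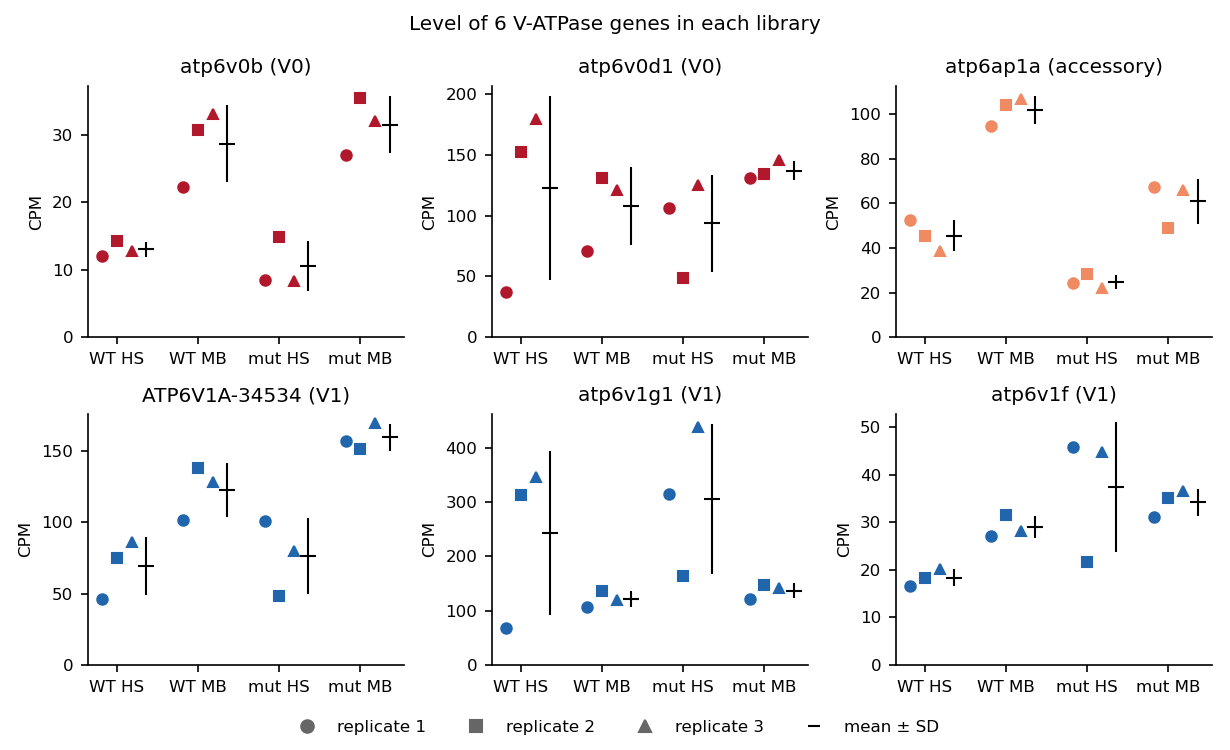
CPM of 6 genes in each of the 12 libraries, with the replicate number given by the marker and the mean ± SD of 3 libraries in black. The MB libraries of atp6v0b and atp6ap1a lie above the HS libraries of the same genotype, and atp6ap1a is lower in the mutant in both fractions. Spike-in scaling turned the differences of atp6ap1a to 1.08 in HS and 0.27 in MB, beside medians of all genes of 1.82 and 1.08. WT HS replicate 1 and mutant HS replicate 2 are the lowest of their group in atp6v0d1, ATP6V1A-34534, atp6v1g1, and atp6v1f.

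The balance of the sectors can also be read within a library, as the share of V-ATPase counts that fell on V0 and accessory genes, which does not depend on the scaling between libraries. Counts were not divided by transcript length, so the share is of reads and not of molecules. Genes with many counts weigh most in it, such as ATP6V0C (229988 over all 12 libraries) and atp6v0cb (177613), and atp6v1g1 (178958) in V1. The share was 55.3, 40.2, and 38.0% in WT HS replicates 1 to 3 and 54.3, 55.1, and 57.4% in WT MB. In the mutant it was 31.8, 48.9, and 33.0% in HS and 47.1, 42.6, and 47.0% in MB. The exact 95% binomial intervals of these shares are at most 1.14 percentage points wide and cover counting error only, since reads copied by PCR are not independent molecules. The MB libraries thus lay within narrow ranges, 55.6 ± 1.6% in WT and 45.6 ± 2.57% in the mutant (SD, n = 3), while HS spread over 44.5 ± 9.43% and 37.9 ± 9.58%. In each genotype the HS library with few V1 counts, WT replicate 1 and mutant replicate 2, fell inside or above the MB range and the other HS libraries below it. Without these libraries, all HS shares were below all MB shares of their genotype. They were set aside after seeing the data, for low V1 counts that raise this share, so the separation follows from the choice. The 3 WT MB shares were above the 3 mutant MB shares.

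The summed level of the 13 V1 genes was 414, 1031, and 1203 CPM in WT HS and 741, 995, and 926 CPM in WT MB, and 1180.0, 586, and 1348 CPM in mutant HS and 982, 1039, and 1131 CPM in mutant MB. The sum of the 14 V0 and accessory genes was 513, 693, and 739 CPM in WT HS and 879.7, 1221, and 1246 CPM in WT MB, and 551, 562, and 663 CPM in mutant HS and 875, 771, and 1002 CPM in mutant MB. The V0 and accessory sum was higher in each MB library than in each HS library of its genotype, and the V1 sums overlapped.

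Other genes of the lysosome and of V-ATPase assembly were listed alongside. The shares of all genes that were MB-enriched and HS-enriched were 12.4% and 13.3% in WT and 17% and 20% in the mutant. Of 43 lysosome lumen genes 23 were MB-enriched and 0 HS-enriched in WT, with a median log2 MB/HS of 0.88, and 28 and 0 in the mutant (0.91). Examples are the proteases ctsd (1.48 ± 0.22) and ctsh (1.48 ± 0.25) in WT. Of 20 lysosome membrane genes 11 and 0 were called in WT (0.88) and 7 and 0 in the mutant (0.60), among them the sialic acid transporter slc17a5 (2.11 ± 0.38 in WT and 1.39 ± 0.47 in the mutant) and the ion channel tpcn2 (1.62 ± 0.36 and 1.23 ± 0.31). The V0 and accessory genes together had medians of 1.06 in WT and 0.90 in the mutant, beside 0.88 and 0.91 for the lysosome lumen and 0.88 and 0.60 for the lysosome membrane. In the mutant the median was 0.49 for V0 alone and 1.13 for the accessory genes alone. The V1 medians were near that of all genes. Of 20 genes for assembly or regulation of the pump, which include the V0 a3 genes (TCIRG1) that carry no atp6 symbol, 5 were MB-enriched and 0 HS-enriched in WT (median 0.86), and 7 and 2 in the mutant (0.40), with rnaseka, a partner of the pump, at 1.47 ± 0.44 in WT. The 9 genes of the Ragulator and Rag complexes, which sit on the lysosome and are soluble or lipid-anchored, had 0 calls in WT (median -0.17, with 0 at p under 0.05 before adjustment), and 0 MB and 4 HS calls in the mutant (-0.45), among them lamtor4 (-1.19 ± 0.21) and lamtor5 (-1.39 ± 0.32). Library totals gave these 9 genes 3 MB and 0 HS calls in the mutant, with a median of 0.39, and spike-in totals gave 5 and 0, with a median of 1.4. Under these scalings 52.5% and 75.9% of all genes were MB-enriched in the mutant.

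The mitochondrial ATP synthase, the other rotary pump of these cells, differed in its distribution. Its soluble F1 and membrane Fo sectors are both made in the cytosol when encoded in the nucleus and are then imported. Of 8 F1 genes 0 were MB-enriched and 4 HS-enriched in WT, with a median log2 MB/HS of -0.90, and of 12 nuclear Fo genes 0 and 9 (-1.28). In the mutant it was 0 and 7 for F1 (-1.34) and 0 and 12 for Fo (-1.91). The HS-enriched share of all genes tested was 13.3% in WT and 20% in the mutant. The F1 subunit gene atp5f1e stood at -1.42 ± 0.31 in WT and -2.41 ± 0.25 in the mutant, and the Fo stalk gene atp5pf at -1.69 ± 0.26 and -2.01 ± 0.34. With spike-in scaling the medians turned to 1.53 for F1 and 1.05 for Fo in WT and to 0.66 and 0.14 in the mutant, still below the median of all genes of 2.62 and 1.92. The Fo list was thus below the F1 list in median MB/HS, by values opposite in order to those of V0 and V1. The difference between the enzymes was not tested, and the lists do not strictly part soluble from membrane subunits. The F1 list includes the inhibitor genes atp5if1a and atp5if1b and the stalk gene atp5po. The Fo list includes stalk genes such as atp5pf and leaves out mt-atp6 of the mitochondrial genome, which was MB-enriched in WT (2.71 ± 0.33).

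Marker genes of cells rich in V-ATPase were read in the same fits. The shares of all genes that were MB-enriched and HS-enriched were 12.4% and 13.3% in WT and 17% and 20% in the mutant. Between the genotypes 6.66% were higher and 11.4% lower in mutant HS. In MB 1582 of all 24897 genes were lower in the mutant at p under 0.05 before adjustment. The list for H+-ATPase-rich ionocytes holds both genes with the symbol SLC4A1, and whether each of them marks these cells was not tested. 1 of them was among the WT calls (0.8, adjusted p = 0.0494) and the other among the mutant calls (2.15, adjusted p = 0.0131). The counts, medians, and sums of this list include both. Of its 12 genes, all detected in every library, 2 were MB-enriched and 0 HS-enriched in WT (median 0.65), and 7 and 1 in the mutant (1.12). Their summed level ran from 126 to 199 CPM in WT HS, 195 to 246 in WT MB, 87.1 to 120.4 in mutant HS, and 172 to 270 in mutant MB, and between the genotypes 0 of 12 were called in HS or in MB. Of 13 genes of synaptic vesicles, 4 were MB-enriched and 1 HS-enriched in WT (0.29), and 7 and 0 in the mutant (0.83). In HS 8 of these 13 were lower in the mutant and 0 higher (median -1.17), with sums of 1399 to 1682 CPM in WT HS and 573 to 1105 CPM in mutant HS, and in MB 0 were called and 6 were lower at p under 0.05 before adjustment. Of 16 genes of osteoclasts and macrophages, 3 were MB-enriched and 1 HS-enriched in WT and 4 and 1 in the mutant, and 1 was lower in mutant HS. This list holds both TCIRG1 genes and several genes matched to the symbol MFAP4, so its counts are not of 16 separate markers. Skeletal muscle markers had 1 MB and 6 HS calls of 7 in both genotypes, and the 8 listed genes of the cytosolic ribosome 0 and 3 in WT and 0 and 8 in the mutant. With spike-in scaling neither list had an HS call in either genotype, 2 ribosome genes were MB-enriched in WT, and the WT medians turned to 1.1 for muscle and 1.45 for the ribosome. Under that scaling 75% of all genes were MB-enriched and 0.0758% HS-enriched in WT, with a median of 2.62. Spike-in scaling turned the HS median of the synaptic vesicle genes between the genotypes from -1.17 to 0.86, beside 1.82 for all genes. No marker of these lists was at 0 in any library, and the part of any cell type in the V-ATPase values was not tested.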

How the data were processed

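RNA from 12 fractions (2 µg each, with ERCC spike-ins) was sequenced by the authors from polyA-selected, stranded libraries. The deposited values are estimated counts per gene, made by the authors with Salmon (version 1.4.0, also named in the submitters' processing notes) on the GRCz11 annotation and not scaled to library size. Of the values, 30.5% were not whole and were rounded. Genes with more than 50 counts over the libraries of a fit were tested in edgeR 4.0.16 (R 4.3.3) with TMM scaling and the quasi-likelihood F test. P-values were adjusted by the Benjamini-Hochberg method over all genes tested, and a gene was called at an adjusted p of at most 0.05. MB was compared with HS in 6 libraries per genotype. The difference of MB/HS between the genotypes, and the level of mutant against WT in each fraction, came from 1 fit of 12 libraries. CPM were computed with TMM over all 12 libraries, and log2 ratios within a replicate number used CPM plus 0.01. DESeq2 1.42.0, scaling to library or spike-in totals, other count filters, a replicate block, and leaving out libraries were the alternatives.

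Libraries of the same replicate number deviated together from their group means, with a correlation of 0.487 to 0.596 in WT and 0.285 to 0.539 in the mutant over 24897 genes, although WT HS replicate 3 also had 0.515 with WT MB replicate 2. The numbers were therefore taken to pair the fractions, and blocked values are given where they change a call. The members, gene lists, and tests were chosen with earlier results of these data known. Values in each library are given for genes called in any comparison or with over 20000 counts in total, and of other lists up to 3 called genes with the largest changes. No sequences, transcript lengths, or coordinates are given.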

Additional observations from a re-analysis of the deposited data

How the results depend on the processing

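Leaving out 1 library at a time gave 0 to 14 MB-enriched and 0 to 3 HS-enriched V-ATPase genes in WT (12 and 0 with all libraries), and 4 HS-enriched without replicate 1 of both fractions. Of all genes, 0 to 29.8% were MB-enriched and 0 to 28% HS-enriched in the single omissions, and 33.7% HS-enriched without both. In the mutant single omissions gave 7 to 10 MB-enriched and 0 to 4 HS-enriched genes (10 and 2 with all), against 7.27 to 25% and 10.6 to 25.6% of all genes. A fit of all 12 libraries gave 0 HS-enriched, against 16.2%. Between the genotypes single omissions gave 1 to 4 genes in HS (3 with all), against 2.36 to 7.38% higher and 5.25 to 15.3% lower. The HS libraries alone gave 0, and MB gave 0 under each single omission. In MB, DESeq2 gave 1, and leaving out WT HS replicate 1 with mutant HS replicate 2, chosen after seeing the data, gave 1. With the replicate block 1 gene differed in MB/HS between the genotypes. The block changed no call but those of both ATP6V1A genes in WT, atp6v1c2 in the mutant, and atp6ap1la, and no paired analysis was possible for mutant against WT because the numbers lie within a genotype.

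Scaling to spike-in totals gave 24 MB-enriched genes in WT, 25 MB-enriched and 0 HS-enriched in the mutant, and 6 genes between genotypes in HS. Of all genes, 75% in WT and 75.9% in the mutant were MB-enriched under this scaling, and 53.5% were higher in mutant HS. Library totals gave 21 and 0 in the mutant, against 52.5% and 5.71% of all genes. They turned the log2 MB/HS in the mutant to 0.11 for atp6v1e1a, 0.24 for atp6v0e1, 0.76 for atp6v1e1b, and 0.62 for atp6v1f. In WT they turned atp6v0d1 to 0.26, atp6v0e1 to 0.50, atp6ap1la to 0.08, ATP6V1C1-35880 to 0.40, atp6v1e1a to 0.08, and atp6v1e1b to 0.42. Spike-in totals turned the log2 MB/HS in WT to 2.16 for atp6v0d1, 2.48 for atp6v0e1, 2.41 for atp6ap1la, 2.33 for ATP6V1C1-35880, and 2.30 for atp6v1e1b. They also turned it in WT to 1.68 for atp6v1c2, 1.96 for atp6v1e1a, and 1.26 for atp6v1g1. In the mutant they gave 1.38 for atp6v0e1, 1.28 for atp6v1e1a, 2.09 for atp6v1e1b, 1.88 for atp6v1f, 0.93 for atp6v1g1, and 0.95 for atp6v1c2. Between the genotypes in HS they gave 1.08 for atp6ap1a and 0.44 for atp6ap1la. Under spike-in totals every V-ATPase gene was above 0 in MB/HS in both genotypes, and in mutant against WT in both fractions. Spike-in totals also moved the median of all genes, to 2.62 in WT and 1.92 in the mutant for MB/HS. For mutant against WT they moved it to 1.82 in HS and 1.08 in MB. The difference between the sectors kept its sign under all of these settings, at 0.55 to 1.22 in WT and 0.60 to 1.17 in the mutant, also when atp6v0d1 was counted with V1, a grouping chosen after seeing the data. Of all gene values under the alternatives, 2195 kept their side of the threshold, 61 passed it anew, and 76 no longer passed it. A further 13 reversed in sign and were called with the main setting or the alternative. Changes of sign in values called under neither are counted among the 2195. With at least 10 counts in every library required, atp6v1c2 was not tested.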
